A study of Homo sapiens with 12 samples.

Results

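The genes of the mitochondrial genome were taken as all genes of the count table whose symbol starts with MT-. The rule found 37 of 60664 genes: 13 that code for proteins, 2 for ribosomal RNAs (rRNAs) and 22 for transfer RNAs (tRNAs). All 37 lie on chromosome M of the human genome build GRCh38, and by the GENCODE v29 annotation 28 are on the plus strand and 9 on the minus strand. The minus-strand genes are MT-ND6 and 8 tRNA genes.

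The study concerns transcripts of neuroblastoma cells on surfaces of different stiffness. SK-N-SH, an established human neuroblastoma line whose cultures hold neuron-like and flat, substrate-adherent cells, was the only line used, and no group carries a treatment or genetic change by the labels. RNA was sequenced from 4 libraries at 1 kPa (the softest surface), 4 at 8 kPa and 4 at 30 kPa (the stiffest), where kilopascals measure elastic modulus. The labels do not say what the surfaces were made of, how long cells stayed on them, or whether the 4 libraries of a group came from separate cultures, so p-values speak only to how far these libraries scatter, and that scatter may be technical.

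Human mitochondrial DNA is a small circle that is transcribed from both strands into long precursors, from which the tRNAs are cut out, freeing the messenger and ribosomal RNAs between them. Its protein genes encode core subunits of respiratory complexes I, III and IV and of ATP synthase (complex V), its rRNAs build the mitochondrial ribosome, and its tRNAs read the mitochondrial codons. The other proteins of these complexes, and all factors that copy, transcribe and process the circle, come from nuclear genes.

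Libraries on 1 kPa held 14317437 to 15896607 counts in all, those on 8 kPa 14951116 to 25349320 and those on 30 kPa 23896536 to 27820973. The 8 kPa replicate 1 library was as shallow as the 1 kPa libraries, and all others at 8 and 30 kPa lay above 2e7 counts, so depth and stiffness overlap closely. Of the labelled cell type's markers, the sympathetic neuroblast factors HAND2 and GATA3 were at 197 to 391 and 86.9 to 116 CPM (counts relative to the TMM-scaled library size, per 1e6), but TH, the first enzyme of catecholamine synthesis, reached at most 0.0358 CPM. The mesenchymal gene PRRX1 and the fibroblast marker COL1A1 were high, at 1371 to 1841 and 523 to 851 CPM. Among the 7 fibroblast markers COL1A2 and DCN were lowest, at 2.15 to 4.29 and 11.4 to 21.1 CPM. The pan-leukocyte gene PTPRC stayed at or below 0.502 CPM.

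Many mitochondrial genes touch or overlap, which bears on how reads can be assigned. MT-ATP8 (chrM:8366-8572, plus strand) and MT-ATP6 (chrM:8527-9207, plus strand) share 46 bases, printed here because a read that falls inside them belongs to both genes; the capitals mark the start codon of MT-ATP6 and the stop codon of MT-ATP8. Those 46 bases are a large part of MT-ATP8, the shortest protein gene at 207 bases. How the authors' counting treated reads in shared stretches is not given in the sources used here.
MT-ATP8 and MT-ATP6, chrM:8527-8572: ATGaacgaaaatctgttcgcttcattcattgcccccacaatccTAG

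These tRNA genes are shown because they mark the extremes of detection. MT-TQ (glutamine), MT-TS1 (serine) and MT-TP (proline) had the highest tRNA levels, and MT-TN (asparagine) and MT-TV (valine) had 0 counts in all 12 libraries. The sequences are from GENCODE v29 on GRCh38, written 5′ to 3′ on each gene's own strand, with the anticodon in capitals. MT-TQ, MT-TS1, MT-TP and MT-TN are on the minus strand, and MT-TV is on the plus strand between the 2 rRNA genes.
MT-TQ, chrM:4329-4400: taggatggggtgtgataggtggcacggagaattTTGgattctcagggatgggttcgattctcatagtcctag
MT-TS1, chrM:7446-7514: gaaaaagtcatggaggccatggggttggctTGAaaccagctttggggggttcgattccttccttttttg
MT-TP, chrM:15956-16023: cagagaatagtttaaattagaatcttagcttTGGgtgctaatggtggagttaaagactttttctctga
MT-TN, chrM:5657-5729: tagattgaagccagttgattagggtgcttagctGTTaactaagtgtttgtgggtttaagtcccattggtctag
MT-TV, chrM:1602-1670: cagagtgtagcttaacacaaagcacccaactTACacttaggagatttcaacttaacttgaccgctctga

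Protein genes took most of the mitochondrial counts, and their share of the library total was lowest at 8 kPa. It was 10.9, 12.1, 12.3 and 9.33% in replicates 1 to 4 at 1 kPa, 8.20, 9.55, 8.37 and 8.74% on 8 kPa and 10.6, 10.4, 9.79 and 9.76% on 30 kPa. The means were 11.2 ± 1.38% on the softest, 8.71 ± 0.600% on the middle and 10.1 ± 0.442% on the stiffest surface (SD, n = 4 each). The ranges at 8 and 30 kPa did not overlap, whereas 1 kPa replicate 4, the lowest of its group, fell within the 8 kPa range. Such shares are relative, so less mitochondrial RNA and more RNA from other genes cannot be told apart. Nor can fewer cells of a type and less RNA per cell. Any poly(A) selection or rRNA removal is not given, so the split between protein and rRNA transcripts in the cells is not read from them.

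The rRNA share was 2.41, 2.30, 2.48 and 1.95% at 1 kPa, 2.01, 1.90, 2.00 and 1.91% on 8 kPa and 2.51, 2.13, 2.41 and 1.95% on 30 kPa. Its means of 2.29 ± 0.238%, 1.96 ± 0.0557% and 2.25 ± 0.256% (SD, n = 4 each) were again lowest at 8 kPa, but both other groups had a library inside the 8 kPa range. The tRNA share was smaller by orders of magnitude, with means of 0.00366 ± 0.000519%, 0.00361 ± 0.000165% and 0.00445 ± 0.000383% (SD, n = 4 each). It was highest at 30 kPa, where all 4 libraries lay above all 8 kPa libraries, and 1 kPa spanned values on both sides. The 37 genes together took 13.5 ± 1.59% of counts on the softest, 10.7 ± 0.553% on the middle and 12.4 ± 0.604% on the stiffest surface (SD, n = 4 each). The 95% Wilson interval of a library's total share was at most 0.0363 percentage points wide, which covers counting error only.

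**Figure D1:**
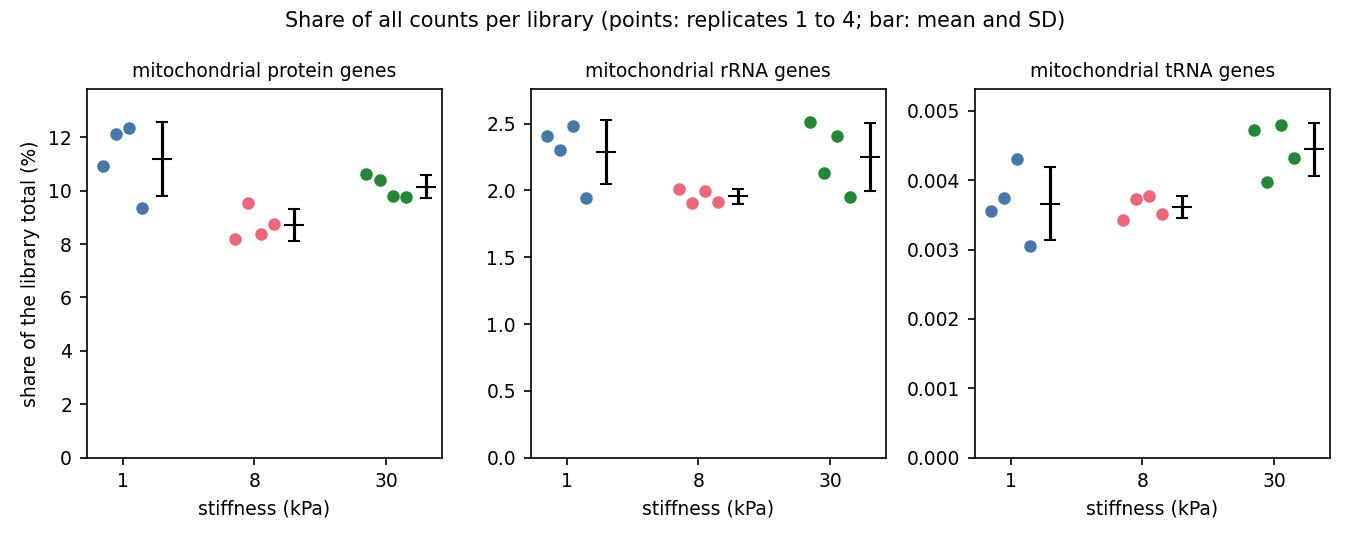
Share of all counts of a library (%, vertical axis from 0) held by mitochondrial protein, rRNA and tRNA genes at 1, 8 and 30 kPa; points are replicates 1 to 4 and the bar is the mean with the SD (n = 4). Protein and rRNA shares have their lowest mean at 8 kPa (8.71% and 1.96%), and the tRNA share is highest at 30 kPa.

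Of the 37 genes, 23 passed the filter on low counts: all 13 protein genes, both rRNA genes and 8 of 22 tRNA genes. Another 8 tRNA genes had 0 counts in every library, namely MT-TV, MT-TN, MT-TK, MT-TG, MT-TR, MT-TH, MT-TS2 and MT-TL2. By counting error alone, a count of 0 allows up to 3 counts, or 0.108 to 0.210 CPM of a library's total. Reads that the counting did not assign to a gene are not covered by this. The remaining 6, MT-TF, MT-TL1, MT-TI, MT-TM, MT-TC and MT-TD, are named to account for every gene and reached at most 11 counts in a library. The 8 minus-strand tRNA genes held 92.9% of the tRNA counts and the 14 plus-strand genes 7.11%. The strand setting of the counting is not given in the sources used here, and without it reads of a gene and of the transcript opposite to it cannot be told apart.

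Levels between genes were compared as CPM per kilobase of annotated length. Any poly(A) selection or rRNA removal is not given in the sources used here. The rRNA genes are therefore placed among the protein genes by library counts only, and no order of these transcripts in the cells is read. The catalytic core subunits of complex IV led the order: MT-CO1 was at 18457 ± 2540.5 CPM per kilobase, MT-CO2 at 13444 ± 1939 and MT-CO3 at 11666 ± 1306 (SD over the 12 libraries). MT-CO1 exceeded MT-CO2, and MT-CO2 exceeded MT-CO3, in each of the 12 libraries. MT-RNR2, the large-subunit rRNA, followed at 11484 ± 1389 CPM per kilobase, with MT-CO3 above it in 7 of 12 libraries, so these neighbours did not separate. The complex I genes MT-ND4L (10458 ± 2336 CPM per kilobase) and MT-ND3 (10300.3 ± 2069) did not separate either, with MT-ND4L higher in 5 of 12.

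Below them on the same scale came MT-ND4 (9790.2 ± 1736), MT-ATP6 (8959 ± 1269), MT-CYB (7694 ± 1311), MT-ND2 (7476 ± 1315) and MT-ND1 (6095 ± 987). MT-CYB exceeded MT-ND2 in 9 of 12 libraries, and the other steps of this stretch held in all 12. The small-subunit rRNA MT-RNR1 was at 3965 ± 592 CPM per kilobase and MT-ATP8 at 3561 ± 1683, with MT-RNR1 higher in 9 of 12. The lowest protein genes were MT-ND5 at 1929.8 ± 255 and MT-ND6, the only protein gene on the minus strand, at 1397 ± 211 CPM per kilobase. The levels of MT-ATP8 and MT-ND4L depend on how reads in the shared stretches were assigned. As above, the places of the rRNA genes hold for these library counts and are not read as levels in the cells.

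The first comparison set the middle surface, 8 kPa, against the softest, 1 kPa. Of 13 protein genes, 7 fell at 8 kPa and 0 rose, while 5.6% of the 17960 genes tested were called lower and 8.17% higher (edgeR quasi-likelihood F-test, Benjamini-Hochberg adjustment over all tested genes, threshold 0.05). Neither rRNA gene and 0 of 8 tested tRNA genes passed. The 13 protein genes all had a negative log2 fold change, with a median of -0.38 against -0.01 over all tested genes, of which 52.4% were negative. All 13 had an unadjusted p under 0.05, as 14.6% of all tested genes did in that direction. By complex, 4 of 7 genes of complex I fell, the 1 gene of complex III, 0 of 3 of complex IV and both of complex V.

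MT-CYB, the only mitochondrially encoded subunit of complex III, was at 9601, 11350.5, 11422 and 8402 CPM in replicates 1 to 4 at 1 kPa and at 6826, 8263, 6754 and 7522 CPM at 8 kPa. Every 8 kPa library lay below every 1 kPa library. No other protein gene separated the groups in this way, and 7.36% of all tested genes did so in this direction. With 1 of 13 protein genes, the count is near that share, and no result is read from the separation. The log2 fold change of MT-CYB was -0.47 ± 0.111 (SE, with adjusted p = 0.0169).

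Within complex I, whose membrane arm is built on mitochondrially encoded subunits, MT-ND4L, MT-ND3, MT-ND4 and MT-ND2 fell. MT-ND4L was at 4080.2, 3757, 4401 and 2739.7 CPM on 1 kPa and 2225, 3015, 2288 and 2439 CPM at 8 kPa, a log2 fold change of -0.59 ± 0.137 (SE, with adjusted p = 0.0165). MT-ND3 was at 3875, 4935, 4743 and 3266 CPM on 1 kPa and 2634, 3422, 2688 and 2893 CPM at 8 kPa, a log2 fold change of -0.53 ± 0.124 (SE, with adjusted p = 0.0167). In both genes 1 kPa replicate 4 was the lowest 1 kPa library and lay below 8 kPa replicate 2, the highest at 8 kPa.

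MT-ND4 went from 14873, 16893, 18263 and 12527 CPM at 1 kPa to 10639, 12968, 10183 and 11276 CPM at 8 kPa, a log2 fold change of -0.47 ± 0.123 (SE, with adjusted p = 0.0244). MT-ND2 went from 8005, 10379, 9976 and 7159 CPM to 5779, 7439.6, 6060.2 and 6972 CPM, a log2 fold change of -0.44 ± 0.126 (SE, with adjusted p = 0.0360). The same pair of libraries, 1 kPa replicate 4 and 8 kPa replicate 2, made the groups overlap. The 3 complex I genes that did not pass had log2 fold changes of -0.38 ± 0.123 (SE, with adjusted p = 0.0542) for MT-ND1, -0.27 ± 0.107 (SE, with adjusted p = 0.0999) for MT-ND5 and -0.29 ± 0.112 (SE, with adjusted p = 0.0950) for MT-ND6.

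In ATP synthase, MT-ATP6, which forms part of the proton channel, was at 6520.2, 6941, 7950.3 and 5569 CPM on 1 kPa and 5038, 5804, 4861 and 5285 CPM at 8 kPa, a log2 fold change of -0.36 ± 0.104 (SE, with adjusted p = 0.0347). MT-ATP8, a small membrane subunit of the same complex, was at 1399, 686, 1477 and 535 CPM on 1 kPa and 469.8, 675, 439.5 and 496 CPM at 8 kPa. Its log2 fold change of -0.98 ± 0.279 (SE, with adjusted p = 0.0341) had the widest error of the protein genes. The 1 kPa replicates 1 and 3 stood far above the other 10 libraries in MT-ATP8, and 1 kPa replicates 2 and 4 lay among the 8 kPa and 30 kPa libraries.

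None of the 3 complex IV genes passed. MT-CO1 went from 31632 ± 4649.7 to 25044 ± 1090.0 CPM (SD, n = 4 each), for a log2 change of -0.34 ± 0.121 (SE, with adjusted p = 0.0757) by edgeR. MT-CO2 went from 10309 ± 1492 to 8099 ± 917 CPM, at -0.35 ± 0.116 (SE, with adjusted p = 0.0589), and MT-CO3 from 9963 ± 1269.7 to 8358 ± 665 CPM, at -0.25 ± 0.103 (SE, with adjusted p = 0.111). A p above the threshold does not show that complex IV genes differ from the 7 genes that passed, and that difference was not tested.

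**Figure D2:**
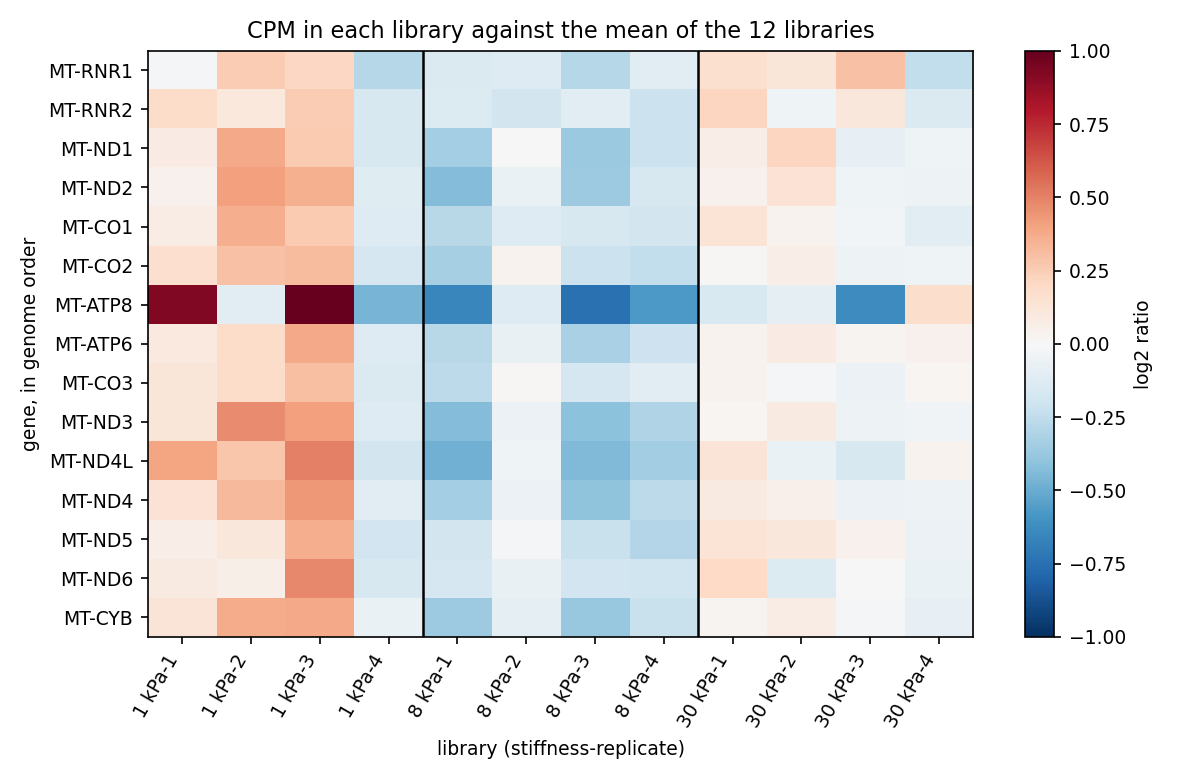
Log2 ratio of the CPM in each library (columns, 4 per stiffness) to the mean over the 12 libraries for the 2 rRNA and 13 protein genes (rows); red is above and blue below that mean, and colours are capped at 1 in either direction. Replicates 1 to 3 at 1 kPa are above the mean in nearly every row, 1 kPa replicate 4 is below it in every row, and MT-ATP8 has the widest spread.

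1 library carried much of the overlap. In 1 kPa replicate 4 each of the 13 protein genes was at its lowest of the group, and 12 of 13 were at or below the highest 8 kPa library. In the 1 kPa replicates 1, 2 and 3 all 13 lay above all 8 kPa libraries. Without 1 kPa replicate 4 all 13 protein genes were called lower, with a median log2 fold change of -0.47, and 15 of the 23 tested genes in all. Over all genes that fit called 1532 of 18235 lower, against 1005 of 17960 with all libraries. Leaving out the lowest 1 kPa library widens the difference by its choice, so the 13 calls are not separate support for it.

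The 7 calls also depended on other libraries. Their count was 0 without 8 kPa replicate 1 and 0 without 8 kPa replicate 3. Removing 1 kPa replicate 2 left 4 and removing 1 kPa replicate 3 left 3, and the 13 fold changes stayed negative in each of these fits, with medians of -0.35, -0.35, -0.35 and -0.34. It was also 0 in a fit of the 1 and 8 kPa libraries alone, with depth class (total below or above 2e7 counts) as a term, and between the 5 shallow libraries, where the medians were -0.39, -0.50 and -0.49. In the shallow libraries the 8 kPa group is 8 kPa replicate 1 alone. Calls over all tested genes fell as well. From 1005 of 17960, the lower calls went to 273 of 18257 without 8 kPa replicate 1 and 181 of 18228 without 8 kPa replicate 3. They were 382 of 18246 without 1 kPa replicate 2 and 584 of 18223 without 1 kPa replicate 3. The fit of the 1 and 8 kPa libraries alone called 411 of 16344 lower.

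Neither rRNA gene passed the test in this comparison. MT-RNR2 was at 20339, 19297, 21296 and 15989 CPM on 1 kPa and 16295, 15753, 16685 and 15455 CPM at 8 kPa, a log2 fold change of -0.26 ± 0.115 (SE, with adjusted p = 0.138). MT-RNR1 was at 3756, 4509.9, 4369 and 3108 CPM and 3421, 3455, 3104 and 3500.0 CPM, a log2 fold change of -0.22 ± 0.127 (SE, with adjusted p = 0.247). In both genes 1 kPa replicate 4 lay within the 8 kPa range.

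Whether rRNA and protein transcripts moved apart was tested within libraries, as the log2 ratio of each rRNA gene's counts to the summed counts of the 13 protein genes, a measure that library scaling leaves alone. For MT-RNR1 the ratio was -4.85 ± 0.0378 on 1 kPa and -4.68 ± 0.110 on 8 kPa (SD, n = 4 each), a difference of 0.17 (two-sided exact permutation test, p = 0.0571, adjusted p = 0.514 over 9 tests). For MT-RNR2 the difference was 0.13 (exact p = 0.200, adjusted p = 0.566). The ratio of MT-ND6, from the other strand, to the other 12 protein genes differed by 0.11 (exact p = 0.257, adjusted p = 0.566). With 4 against 4 the smallest p is 0.0286, so an adjusted p under 0.05 needs most of the 9 tests over the 3 pairs of stiffnesses at that minimum, and none passed.

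Of the 8 tRNA genes tested, 4 had a positive and 4 a negative log2 fold change at 8 kPa, with a median of -0.10. MT-TQ was at 13.4, 16.1, 17.6 and 12.9 CPM on 1 kPa and 14.1, 15.7, 15.5 and 14.7 CPM at 8 kPa, a log2 fold change of 0.00 ± 0.115 (SE, with adjusted p = 0.991). MT-TP was at 6.22, 6.32, 5.59 and 4.75 CPM and 6.69, 6.40, 6.14 and 5.97 CPM, a log2 fold change of 0.14 ± 0.114 (SE, with adjusted p = 0.431). The groups overlapped in both genes. MT-TS1 went from 7.61 ± 1.73 to 6.60 ± 0.489 CPM (SD, n = 4 each), for a log2 change of -0.20 ± 0.139 (SE, with adjusted p = 0.352) by edgeR.

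The second comparison set the stiffest surface, 30 kPa, against the middle one, 8 kPa. No mitochondrial gene was called, and 0.0% of all tested genes were (edgeR, 0 of 17960, with 3218 at an unadjusted p under 0.05). Of the 23 mitochondrial genes tested, 12 had an unadjusted p under 0.05 and 22 a positive log2 fold change, and DESeq2 and limma-voom also called 0. Over all tested genes 17.9% had an unadjusted p under 0.05 and 50.9% a positive fold change.

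The 13 protein genes had log2 fold changes from 0.13 for MT-CO3 to 0.36 for MT-ATP8, with a median of 0.26. In 5 of them, MT-CYB, MT-ND2, MT-CO1, MT-ND3 and MT-ATP6, every 30 kPa library lay above every 8 kPa library, a pattern in that direction that 4.79% of all tested genes showed. MT-CYB at 30 kPa was at 8957, 9227, 8702 and 8316 CPM, a log2 fold change of 0.26 ± 0.111 (SE, with adjusted p = 0.243). MT-ATP6 at 30 kPa was at 6257, 6475, 6212 and 6299 CPM, with 0.27 ± 0.104 (SE, with adjusted p = 0.212). The 4 libraries of MT-ATP6 at 30 kPa lay close together. MT-ND2 had 0.27 ± 0.126 (SE, with adjusted p = 0.274), MT-ND3 0.30 ± 0.124 (SE, with adjusted p = 0.235) and MT-CO1 0.20 ± 0.121 (SE, with adjusted p = 0.403).

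The other protein genes overlapped between 8 and 30 kPa. Their log2 fold changes were 0.26 for MT-ND1, 0.27 for MT-ND4, 0.31 for MT-ND4L, 0.23 for MT-ND5, 0.16 for MT-ND6 and 0.18 for MT-CO2. The rRNA genes had 0.26 ± 0.127 (SE, with adjusted p = 0.292) for MT-RNR1 and 0.20 ± 0.115 (SE, with adjusted p = 0.373) for MT-RNR2. At 30 kPa MT-RNR1 was at 4226, 4106, 4647 and 3191 CPM, so that replicate 4 lay with the 8 kPa libraries.

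Among tRNA genes 7 of 8 had a positive fold change at 30 kPa against 8 kPa, as did 50.9% of all tested genes. MT-TQ, MT-TS1, MT-TT and MT-TP did not overlap between the groups, as 4.79% of all tested genes did not in that direction. MT-TS1, the serine tRNA gene that lies between MT-CO1 and MT-TD, was at 5.97, 7.08, 6.49 and 6.88 CPM at 8 kPa and 10.1, 8.42, 8.78 and 8.30 CPM at 30 kPa, a log2 fold change of 0.42 ± 0.131 (SE, with adjusted p = 0.158). MT-TQ at 30 kPa was at 18.4, 15.8, 22.0 and 17.5 CPM, with 0.30 ± 0.110 (SE, with adjusted p = 0.199). MT-TT, named because its groups do not overlap and after its values were seen, had 0.59 ± 0.232 (SE, with adjusted p = 0.217). Between the 7 deep libraries alone, where 8 kPa keeps 3 libraries, the protein median was 0.23 and the rRNA median 0.24.

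The third comparison set the stiffest surface against the softest. No mitochondrial gene was called by edgeR, against 2.43% of all tested genes, and 4 of the 23 had an unadjusted p under 0.05, against 18.9% of all tested genes. DESeq2 called 1 and limma-voom 0. The 13 protein genes all had a negative log2 fold change, with a median of -0.16 where 50.0% of all tested genes were negative, and each overlapped between the groups. The values ran from -0.62 ± 0.277 (SE, with adjusted p = 0.240) for MT-ATP8 to -0.04 ± 0.107 (SE, with adjusted p = 0.889) for MT-ND5. This comparison and that of 8 with 1 kPa share the 1 kPa libraries.

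By complex at 30 kPa against 1 kPa, the complex I genes had log2 fold changes of -0.11 for MT-ND1, -0.16 for MT-ND2, -0.23 for MT-ND3, -0.21 for MT-ND4, -0.28 for MT-ND4L and -0.13 for MT-ND6. MT-CYB had -0.21, MT-CO1 -0.14, MT-CO2 -0.17, MT-CO3 -0.13 and MT-ATP6 -0.10. The rRNA genes had 0.04 ± 0.127 (SE, with adjusted p = 0.911) for MT-RNR1 and -0.06 ± 0.115 (SE, with adjusted p = 0.828) for MT-RNR2.

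Of the 8 tRNA genes tested, 6 had a positive log2 fold change at 30 kPa against 1 kPa, with a median of 0.26 where 50.0% of all tested genes were positive. MT-TP, the proline tRNA gene, was at 6.22, 6.32, 5.59 and 4.75 CPM on 1 kPa and 8.51, 6.98, 7.52 and 6.81 CPM at 30 kPa. It was the 1 tRNA gene in which every 30 kPa library lay above every 1 kPa library, as 5.33% of all tested genes did. With 1 of the 23 mitochondrial genes tested, the count is near that share, and no result is read from it. Its log2 fold change was 0.39 ± 0.111 (SE, with adjusted p = 0.0818) by edgeR, and DESeq2 called it (adjusted p = 0.0421). MT-TQ had 0.30 ± 0.113 (SE, with adjusted p = 0.170) and MT-TS1 0.23 ± 0.135 (SE, with adjusted p = 0.389). Counts were low, at 75 to 210 per library for MT-TP. Whether the tRNA and protein genes differ in their response was not tested.

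**Figure D3:**
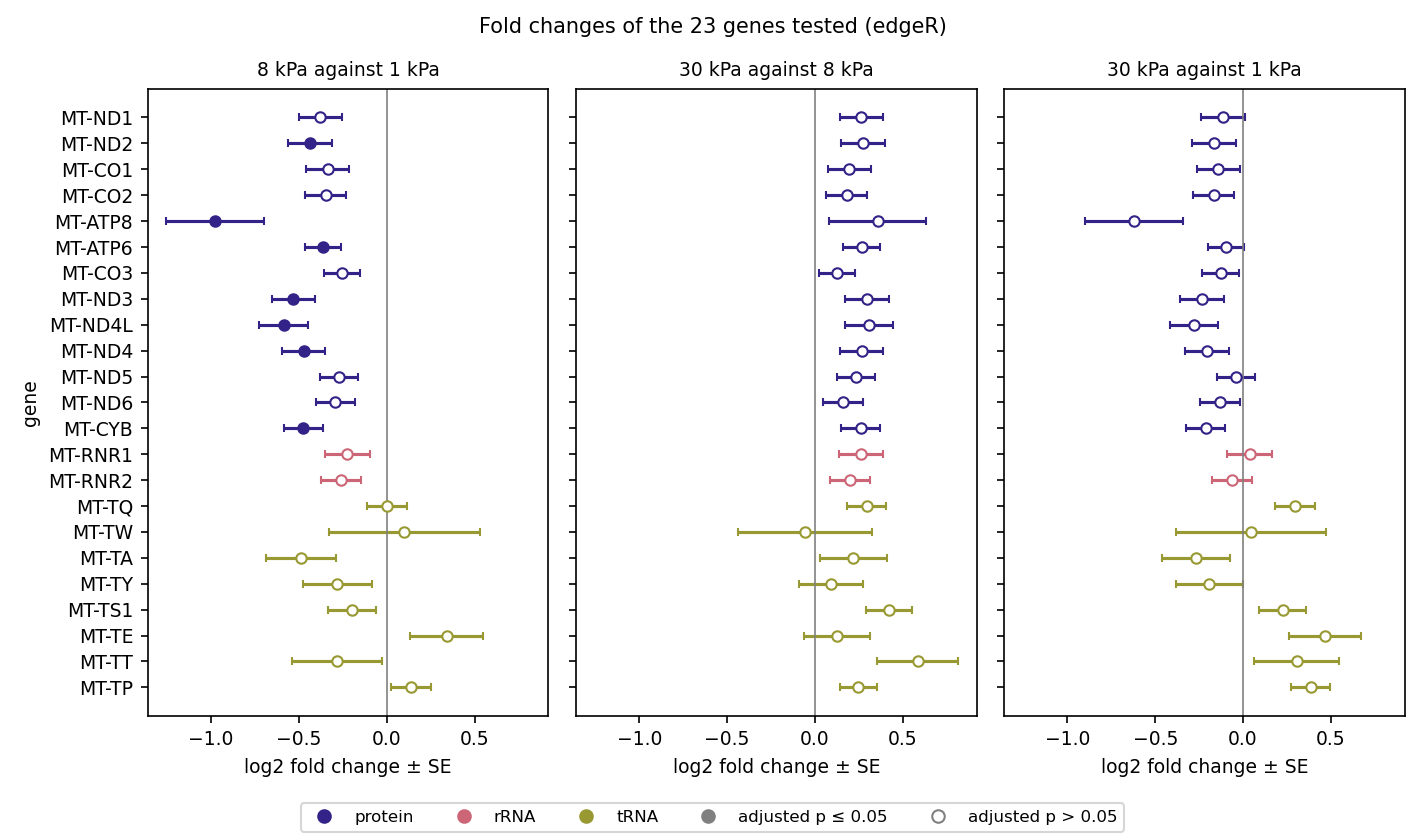
Log2 fold change with its SE (horizontal axis) of the 23 mitochondrial genes that passed the low-count filter, in the 3 pairs of stiffnesses; filled points passed an adjusted p of 0.05 in edgeR, and colour gives the class. The 13 protein genes sit left of 0 at 8 kPa against 1 kPa, right of 0 at 30 kPa against 8 kPa, and the 7 filled points are all in the first panel.

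The log2 distance of 8 kPa from the mean of the other surfaces was tested across all 12 libraries; it can pass where 8 kPa differs from only 1 of them. Of 13 protein genes 3 were lower at 8 kPa than that mean, against 2.66% of all tested genes: MT-ND4L at -0.45 ± 0.120 (SE, with adjusted p = 0.0420), MT-ND3 at -0.41 ± 0.109 (SE, with adjusted p = 0.0389) and MT-CYB at -0.37 ± 0.0976 (SE, with adjusted p = 0.0405). All 13 had a negative value, with a median of -0.32, and 12 an unadjusted p under 0.05, against 50.9% and 12.8% of all tested genes in that direction. None of these 3 genes passed at 30 kPa against 8 kPa, where MT-ND4L had an adjusted p of 0.259, MT-ND3 0.235 and MT-CYB 0.243. MT-ATP6 and MT-ND4 came next at -0.31 ± 0.0909 (SE, with adjusted p = 0.0506) and -0.37 ± 0.108 (SE, with adjusted p = 0.0512). The rRNA genes had -0.23 (adjusted p = 0.154) for MT-RNR2 and -0.24 (adjusted p = 0.173) for MT-RNR1, and 0 of 8 tRNA genes passed. These calls depended on single libraries: the count was 0 without 1 kPa replicate 1 or 3, 8 kPa replicate 1, 2 or 3, or 30 kPa replicate 1, 2 or 3. It was 1 when 30 kPa replicate 4 was left out, 5 when 8 kPa replicate 4 was, and 16 when 1 kPa replicate 4 was.

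Summed by complex, complex IV genes took 5.12 ± 0.590% of the library total on the softest, 4.18 ± 0.210% on the middle and 4.71 ± 0.233% on the stiffest surface (SD, n = 4 each). The 7 complex I genes took 4.29 ± 0.584%, 3.22 ± 0.312% and 3.86 ± 0.194%. Complex V took 0.766 ± 0.120%, 0.580 ± 0.0457% and 0.699 ± 0.0210%. Within the protein counts of a library the shares of MT-CO1 and MT-ND4 varied little: over the 12 libraries they held 26.7 to 30.7% and 12.3 to 14.3%. Some smaller shares moved more, at 2.76 to 3.74% for MT-ND4L, 3.02 to 3.84% for MT-ND5 and 0.610 to 0.811% for MT-ND6. MT-ATP8 varied most for its size, at 0.489 to 1.28%.

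Nuclear genes of the same machines were counted from lists of their own, to be read against 8.17% of all tested genes called higher, 5.6% called lower and a median log2 fold change of -0.01 at 8 kPa against 1 kPa. At 8 kPa against 1 kPa, 16 of 37 nuclear subunits of complex I rose and 1 fell, with a median log2 fold change of 0.21, and 22 of 34 nuclear subunits of complexes III, IV and V rose and 0 fell, with a median of 0.25. Of 20 other matrix and membrane proteins of mitochondria 13 rose and 0 fell, with a median of 0.26. Among them NDUFB3, an accessory subunit of complex I, went from 36.6 ± 1.33 to 49.2 ± 2.51 CPM (SD, n = 4 each), for a log2 change of 0.43 ± 0.0578 (SE, with adjusted p = 0.00521) by edgeR. ATP5F1C, the gamma subunit of ATP synthase, rose by 0.29 ± 0.0596 (SE, with adjusted p = 0.0115), and TIMM23, a channel of the inner membrane import machinery, by 0.37 ± 0.0592 (SE, with adjusted p = 0.00656) on the same scale. NDUFB7 and NDUFS5 rose by 0.48 and 0.39, COX7B and ATP5PD by 0.35 and 0.24, and TOMM40 and IDH2 by 0.30 and 0.59. The 1 complex I gene that fell was NDUFA13, named after its value was seen, at -0.61 (adjusted p = 0.0340).

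These counts rested on few libraries as well. In the order of the 3 lists, leaving out 8 kPa replicate 1 left 4, 7 and 9 genes called higher, and leaving out 8 kPa replicate 3 left 4, 2 and 6. With 1 kPa replicate 1 left out the counts were 10, 17 and 11, with 1 kPa replicate 2 left out 6, 16 and 10, and with 1 kPa replicate 3 left out 9, 14 and 10. With depth class as a term, where the comparison rests on 8 kPa replicate 1 alone, the medians were 0.22, 0.27 and 0.26. At 30 kPa against 8 kPa none of these genes passed, and the medians were -0.15, -0.15 and -0.09. At 30 kPa against 1 kPa the medians were 0.06, 0.12 and 0.15, and, where 1.1% of all tested genes were called higher, 1 gene passed, IDH2 (isocitrate dehydrogenase of the matrix), at 0.49 ± 0.102 (SE, with adjusted p = 0.0245). Whether nuclear and mitochondrial subunits differ in their response was not tested.

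Factors that copy and express the mitochondrial genome were counted in the same way, against the same 8.17% called higher and 5.6% called lower over all tested genes. Of 18 genes for transcription, replication and the nucleoid, 4 rose and 2 fell at 8 kPa against 1 kPa, with a median log2 fold change of 0.04. POLDIP2 rose by 0.35 ± 0.0516 (SE, with adjusted p = 0.00521), SSBP1, the mitochondrial single-stranded DNA binding protein, rose by 0.27 ± 0.0560 (SE, with adjusted p = 0.0119), and POLG2, the accessory subunit of the mitochondrial DNA polymerase, had a log2 fold change of -0.43 ± 0.0841 (SE, with adjusted p = 0.00962). The other 3, named after their values were seen, were TWNK, the mitochondrial DNA helicase, at 0.27 (adjusted p = 0.0287), TFAM, the factor that packs the circle and starts its transcription, at 0.24 (adjusted p = 0.0473), and POLG, the catalytic subunit of the polymerase, at -0.19 (adjusted p = 0.0442). Of 24 genes for RNA processing and stability 2 rose and 1 fell, shares near those over all tested genes: HSD17B10 and PRORP, both parts of the RNase P that cuts the precursors, had 0.35 ± 0.0703 (SE, with adjusted p = 0.0110) and -0.29 ± 0.0822 (SE, with adjusted p = 0.0329), and SLIRP, an RNA-binding protein that stabilizes mitochondrial messengers, had 0.34 ± 0.0735 (SE, with adjusted p = 0.0127).

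The next counts also lie near the 8.17% called higher and 5.6% called lower over all tested genes, and no result about these lists is read from them. Of 22 tRNA and rRNA modification genes 1 rose, the methyltransferase TRMT61B at 0.27 ± 0.0693 (SE, with adjusted p = 0.0241). Of 17 mitochondrial aminoacyl-tRNA synthetases, which charge the tRNAs, 2 rose and 2 fell, with RARS2 (arginine) at 0.25 ± 0.0425 (SE, with adjusted p = 0.00726), NARS2 (asparagine) at 0.33 ± 0.0748 (SE, with adjusted p = 0.0151) and SARS2 (serine) at -0.71 ± 0.186 (SE, with adjusted p = 0.0247), and HARS2 (histidine), named after its value was seen, at -0.20 (adjusted p = 0.0450). None of 10 regulators of mitochondrial biogenesis passed in edgeR, with 3 at an unadjusted p under 0.05, against 31.2% of all tested genes. At 30 kPa against 8 kPa 0 genes of these 5 lists passed, and at 30 kPa against 1 kPa NARS2 rose by 0.32 ± 0.0743 (SE, with adjusted p = 0.0401).

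Depth, RNA type and other cell markers were set beside these results. The nuclear noncoding RNAs MALAT1 and NEAT1 fell at 8 kPa against 1 kPa, with log2 fold changes of -0.67 ± 0.105 (SE, with adjusted p = 0.00618) and -0.78 ± 0.130 (SE, with adjusted p = 0.00692). Of 17 listed abundant RNAs that are nuclear or lack a poly(A) tail, 6 were at 0 in every library, among them RN7SK and RMRP. The list summed to 3032 to 4244 CPM on 1 kPa, 1889.7 to 2527 on 8 kPa and 2569 to 3178 on 30 kPa. Most of that sum was MALAT1 and NEAT1, with means of 1791 and 1750 CPM on 1 kPa, 1130 and 1016 on 8 kPa, and 1385 and 1492 on 30 kPa. Only 4 of the list were tested, 2 with a positive and 2 with a negative log2 fold change at 8 kPa against 1 kPa. The summed level of 8 adrenergic markers was 452 to 685 CPM at 1 kPa, 571 to 801 at 8 kPa and 620.1 to 712 at 30 kPa, and that of 7 fibroblast markers 2217 to 2454, 1907 to 2125 and 1961 to 2191 CPM. At 8 kPa against 1 kPa 0 of the 7 fibroblast markers were called by edgeR, with 3 at an unadjusted p under 0.05. Over all tested genes 8.17% were called higher, 5.6% were called lower and 31.2% had an unadjusted p under 0.05. No result about fibroblast content is read from these 7 markers. At 30 kPa against 1 kPa the mesenchymal marker PRRX1 fell, at -0.35 on the log2 scale (adjusted p = 0.0144), as did the fibroblast collagen COL3A1, at -0.52 on the log2 scale (adjusted p = 0.0159). Each was the 1 gene called of its list, of 4 mesenchymal and 7 fibroblast markers, against 2.43% of all tested genes. The mesenchymal list had 2 positive and 2 negative log2 fold changes, and the fibroblast list 2 positive and 5 negative. No loss of either cell type is read from these 2 genes. The part of any of these in the mitochondrial values was not tested.

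Old copies of mitochondrial DNA inside the nuclear chromosomes can take reads from their parents. The table lists 404 such nuclear copies, of which 98 had counts and 7 exceeded 200 counts over the 12 libraries. MTATP6P1 on chromosome 1 (chr1:633696-634376, plus strand) matched MT-ATP6 with 10 mismatches in 681 aligned bases, an identity of 98.5%. It had 11556 to 26069 counts per library and held 85.3% of all counts of the copies, which summed to 0.789 to 1.03% of the mitochondrial counts. The level of MT-ATP6 is therefore uncertain where reads fit both. Per 1000 counts of MT-ATP6, MTATP6P1 had 135 to 165 counts in the 5 shallow and 147 to 162 in the 7 deep libraries.

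For 3 of the 7 copies the ratio to the parent split by depth class without overlap. MTCO3P12 (98.2% identical to MT-CO3 over 547 bases) had 0.112 to 0.246 in the shallow and 0.421 to 0.511 in the deep libraries per 1000 counts of its parent. MTCO2P12 had 0.0618 to 0.149 in the shallow and 0.343 to 0.531 in the deep libraries, and MTND4P12 1.21 to 2.17 in the shallow and 2.24 to 2.95 in the deep libraries, against MT-CO2 and MT-ND4. The 8 kPa replicate 1 library lay with the 1 kPa libraries in all 3 copies, at 0.112, 0.0898 and 1.21. MTCO2P12 rose at 8 kPa against 1 kPa by 1.42 on the log2 scale (adjusted p = 0.0418) and at 30 kPa against 1 kPa by 1.91 on the log2 scale (adjusted p = 0.0294), a call that moves with depth class. MTCO1P12 fell at 8 kPa against 1 kPa, at -0.39 on the log2 scale (adjusted p = 0.0270), and its ratio to MT-CO1 overlapped between depth classes. Read length and alignment settings are not given in the sources used here, so their part was not tested.

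**Figure D4:**
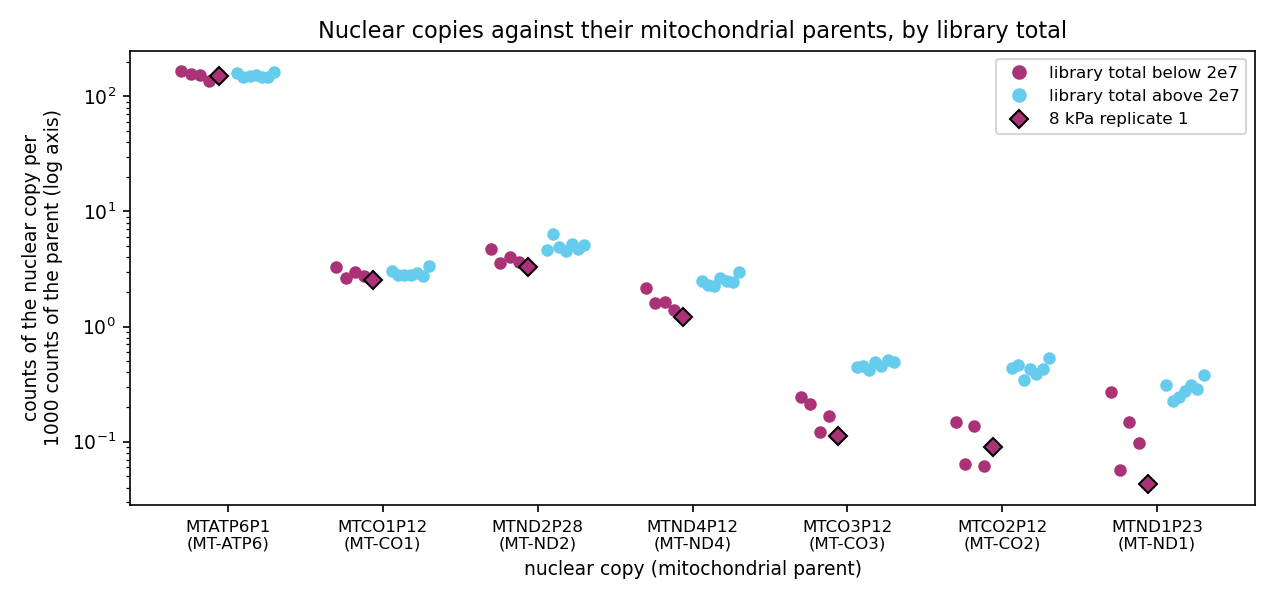
Counts of each nuclear copy per 1000 counts of its mitochondrial parent (log axis) in the 5 libraries with totals below 2e7 (left in each pair) and the 7 above (right); the diamond is 8 kPa replicate 1. The classes do not overlap for MTND4P12, MTCO3P12 and MTCO2P12, and the diamond sits with the 1 kPa libraries.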

How the data were processed

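The authors deposited whole-number counts of reads for each gene in each library, under Ensembl identifiers. Reads were aligned with HISAT2 to GRCh38, per the submitters' processing notes. Total RNA was extracted with TRIzol and a column kit, per the labels' protocols. The counter, annotation release, strand setting, filters and any poly(A) selection or rRNA removal are not given in the sources used here. Of 60664 identifiers 60463 were found in the name table, 42028 with a symbol. Positions and sequences came from GENCODE v29 on GRCh38, which holds all 37 genes.

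The tests used edgeR 4.0.16 in R 4.3.3: filterByExpr left 17960 genes with at least 99.87% of each library's counts, sizes were scaled by TMM, and the 12 libraries were fitted with stiffness as the only term. Quasi-likelihood F-tests were adjusted over all tested genes (Benjamini-Hochberg, threshold 0.05), and every adjusted p of a gene is edgeR's unless another tool is named. An SE is the log2 fold change over the square root of F. The common biological coefficient of variation came to 0.0966. Ratios within libraries were compared with two-sided exact permutation tests. Nuclear copies were aligned to their parents by a local gapped alignment. Overlapping groups and shares were described without a test. Calls among the adrenergic markers are not reported here.

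The 15 protein and rRNA genes were named in every comparison. Named tRNA genes were those that passed a test, the 3 highest by CPM, and those at 0 counts. Of each further list up to 3 genes with the smallest adjusted p among those passing were named. Genes, lists and rules were chosen with earlier results of these data known. Alternatives were other scalings (median-ratio, library size, nuclear genes only), no filter and a stricter one (1 CPM in 4 libraries), DESeq2 1.42.0, limma-voom 3.58.1, the replicate number as a block, depth class as a term, libraries of 1 depth class or of the groups compared alone, and leaving out each library. Tested on simulated data for the comparison of 8 with 1 kPa (17960 genes, 200 changed), edgeR found 96.7% of 2-fold changes and 80.3% of 1.5-fold changes among genes with a mean count of at least 100, with 12 false calls over all genes. The simulation drew genes independently and fitted the 1 and 8 kPa libraries alone, unlike the fit that gave the calls. Most mitochondrial genes changed by less than 1.5-fold, and the simulation does not say how many such changes would be found.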

Additional observations from a re-analysis of the deposited data

How the results depend on the processing

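Group means of the shares moved by less than the replicate SD under the alternatives that can change them (other totals, deep libraries alone, each library left out). This says nothing about stability, because leaving out 1 of 4 libraries cannot move a mean by a full SD. The deep libraries alone likewise drop 1 library at 8 kPa, and the other totals differed little from the full ones. The 9 ratio tests had too few splits to pass readily, so they say nothing about stability. For 8 kPa against 1 kPa the 7 calls became 13 in DESeq2, 0 in the fit of the 2 groups alone, and 0 to 15 when leaving out 1 library. With depth class as a term or in the shallow libraries alone, 8 kPa replicate 1 stands alone for 8 kPa, so calls were not counted. For 30 kPa against 1 kPa DESeq2 and the replicate block each called 1 gene, MT-TP. For the departure of 8 kPa the 3 calls became 5 with library size alone, 11 with no filter, 11 in DESeq2, 6 in limma-voom and 7 with the replicate block, and 0 to 16 when leaving out 1 library. The cause was not tested. No called gene changed sign in any alternative.

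Over all tested genes the 2472 calls at 8 kPa against 1 kPa became 1068 in the fit of the 2 groups alone and 534 to 3563 when leaving out 1 library. The 437 at 30 kPa against 1 kPa became 263 with library size alone, 875 with no filter, 1068 in DESeq2, 974 with the replicate block, and 50 to 676 when leaving out 1 library. With depth class as a term both comparisons with 1 kPa rest on 8 kPa replicate 1, the 1 shallow library at 8 kPa, so their calls are not given. The 0 at 30 kPa against 8 kPa became 330 with no filter, 430 in DESeq2, 61 in the 2 groups alone, 40 with the replicate block, 2 in the deep libraries alone and 0 to 1026 when leaving out 1 library. The 1272 of the departure became 2296 in DESeq2, 2096 with the replicate block and 0 to 2870 when leaving out 1 library.

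The labels number the libraries 1 to 4 in each group, and of 12 same-numbered pairs 11 had a positive correlation of deviations and 8 one over 0.1 (range -0.203 to 0.530). The numbers were not taken as pairs, because not every pair was over 0.1 and the labels do not say what a number marks. As a hint from the data alone, 5 of 12 libraries correlated best with their own number in both other groups. With the replicate block 9 mitochondrial genes were called at 8 kPa against 1 kPa. Of the 22 tRNA genes 14 were too low to test, and whether depth played a part was not tested.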

Other observations

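The sizes of the protein genes' fold changes followed gene length at the short end, a pattern seen after the values. The 3 shortest protein genes, MT-ATP8, MT-ND4L and MT-ND3 (207, 297 and 346 bases), had the 3 largest changes in size in each pair of stiffnesses. At 8 kPa against 1 kPa they had log2 fold changes of -0.98, -0.59 and -0.53, and the other 10 ran from -0.47 to -0.25. At 30 kPa against 8 kPa they had 0.36, 0.31 and 0.30, and the other 10 ran from 0.13 to 0.27. In each pair the value of MT-ND3 lay within its SE of 0.124 of the next gene, MT-CYB or MT-ND2, so its rank is not settled. The comparisons share libraries. Across the 13 genes at 8 kPa against 1 kPa, Spearman's rho of length with log2 fold change was 0.48, and across the other 10 it was -0.15. This is a description across genes that share the same libraries, and its cause was not tested.

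MT-TI (isoleucine, plus strand) and MT-TQ (glutamine, minus strand) overlap by 3 bases on opposite strands. MT-TQ had 192 to 613 counts per library and MT-TI 0 to 11. MT-TN, at 0 counts, was the 1 minus-strand tRNA gene with none, and the other 7 genes at 0 lie on the plus strand. In 90 groups of 4 libraries (a gene, share or ratio at 1 stiffness) checked with Dixon's test at its 95% critical value, 0 held a library beyond it.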
